A study of Mus musculus with 11 samples.

Results

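The 9 genes described here act while a B cell precursor builds its antigen receptor: Rag1, Rag2, Dntt, Vpreb1, Vpreb3, Igll1, Il7r, Cd93 and Sox4. All probe sets annotated to only 1 of these genes were taken, 19 of the 22626 that are not array controls, and every gene had at least 1. One further probe set, annotated to Vpreb1 together with Vpreb2, was left out by this rule. The lymphomas arose in E-mu-BRD2 mice of the FVB background, which carry BRD2, a bromodomain protein that binds acetylated histones, under the immunoglobulin heavy chain enhancer that is active in B lineage cells. The severity classes were marginal (6 lymphomas) and transitional (5 lymphomas), each lymphoma was hybridised to 1 array, and all 11 had an oligoclonal immunoglobulin pattern. By spleen grade, from low to high, marginal 1 was marginal; marginal 2 to 4 and transitional 3 were mild; marginal 5 and 6 were moderate; transitional 4 and 5 were moderately severe; transitional 1 and 2 were severe. All 5 transitional animals, and marginal 2 and 3, had failed to nest, while the other marginal animals had a tumor at the neck, leg or haunch or were paralysed. Flow cytometry was recorded for marginal 6 alone, as B220+, CD5+ and CD11b+. Resting and activated B cells and the other severity class were not analysed here. The tissue each RNA came from and the age of the animals are not given in the sources used here.

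In B cell precursors the Rag1 and Rag2 proteins cut DNA beside immunoglobulin gene segments, and terminal deoxynucleotidyl transferase, the product of Dntt, adds bases at the joints. A rearranged heavy chain first reaches the surface with the surrogate light chain, made of the Vpreb1 and Igll1 (lambda 5) products, in the pre-B cell receptor. Signals through the interleukin 7 receptor sustain these precursors in mice, and Rag1, Rag2, Dntt, Vpreb1 and Igll1 are turned down as B cells mature. Il7r is also a gene of T cells, Rag1, Rag2 and Dntt are also used by thymocytes, Cd93 also marks myeloid and endothelial cells, and Sox4 is active in many progenitors.

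Signals are MAS5 array intensities on a linear scale, and differences and slopes are on a log2(signal + 16) scale, where changes of dim probe sets appear smaller than they are. The median signal of an array ran from 98.8 to 151. Defining B cell markers were bright on 9 arrays and lower on transitional 4 and 5: Cd79a, the signalling chain of the B cell receptor, read 2005 and 910.0 on those arrays but at least 4149 elsewhere. The summed signal of 10 mature B cell markers ran from 55892 to 134963 on those 9 arrays and was 26235 and 23106 on the pair. Erythroid markers, summed over 10 genes, reached 105431 and 86670 there, against at most 72613 elsewhere. These 2 arrays stand apart, and the class differences are given with and without them. In bulk RNA, fewer cells of a type and less RNA per cell cannot be told apart.

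The probe sets of Rag1, Rag2, Dntt and Vpreb1 had means over the arrays too low to be tested, while Vpreb3, Il7r, and some Igll1, Sox4 and Cd93 probe sets were bright enough to be tested. A probe set was tested if its mean log2(signal + 16) over all arrays, blind to class, lay in the upper 60%, which is a mean of at least 6.30 on that scale. Of the 19 probe sets 7 passed, from 5 of the 9 genes: 1 each of Vpreb3, Igll1 and Cd93 and 2 each of Il7r and Sox4. The probe sets of Rag1, Rag2, Vpreb1 and Dntt all fell below, though Vpreb1 on marginal 1 (76.2) and 1 Dntt probe set on marginal 4 (65.6) exceeded the signal that equals the filter, 62.7. No detection call was used, so these signals do not decide whether a dim transcript was present.

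**Figure D1:**
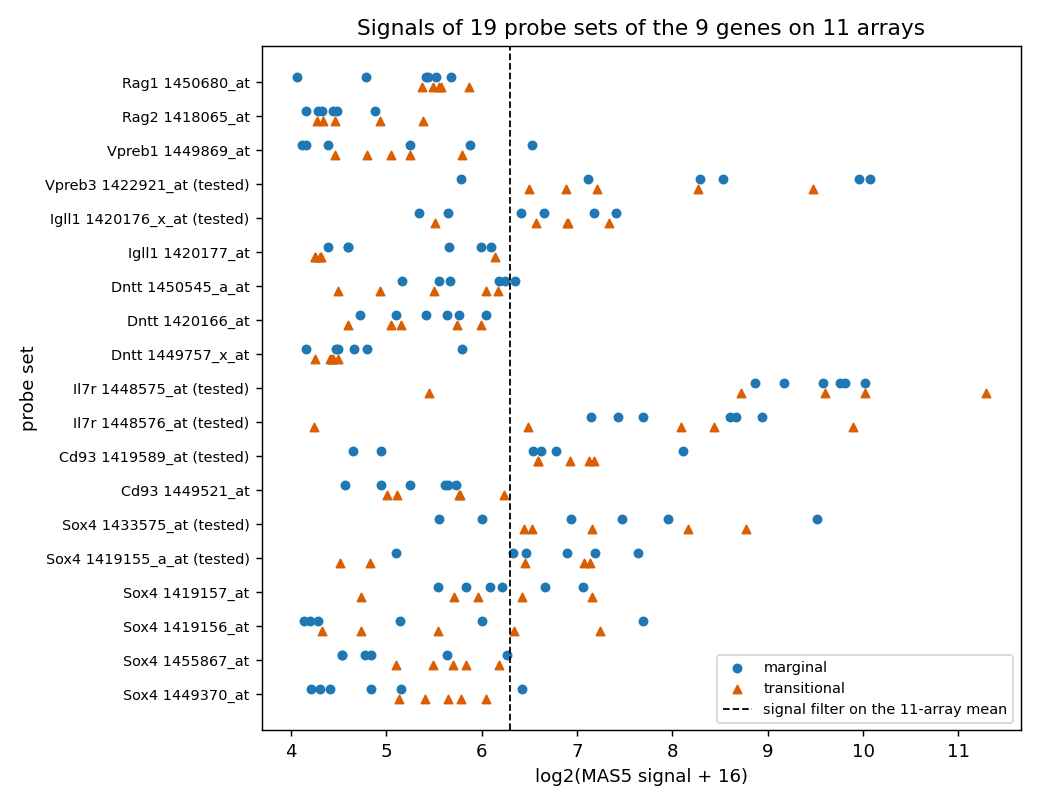
Each row is 1 of the 19 probe sets and each point 1 array, on the log2(signal + 16) scale; circles are the 6 marginal and triangles the 5 transitional lymphomas, and the dashed line is the filter on the mean of the 11 arrays (6.30). Every Rag1 and Rag2 point lies left of the line. Il7r and Vpreb3 points lie right of it, except Il7r on transitional 5 and Vpreb3 on marginal 6. The classes overlap in every row.

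Rag1 and Rag2, which encode both subunits of the recombinase and are next to each other on chromosome 2, gave low signals throughout. Rag1 read 35.1, 30.1, 27.3, 0.7, 26.6 and 11.7 on marginal 1 to 6 and 42.4, 30.9, 31.7, 29.0 and 25.4 on transitional 1 to 5. Rag2 read from 1.9 to 13.4 in the marginal class and 25.7, 3.3, 6.0, 4.2 and 14.5 on transitional 1 to 5. Transitional 1 gave the highest signal for both genes, and the classes overlapped. The 3 Dntt probe sets read from 1.8 to 65.6 in marginal and from 3.0 to 56.1 in transitional lymphomas. They did not rank the arrays alike: the first (1450545_a_at) was highest on marginal 4, the second (1420166_at) on marginal 3 and the third (1449757_x_at) on marginal 1, at 39.6 against at most 11.8 on any other array. Of the 6 thymocyte markers listed, 2 lay below the filter: Ptcra, which encodes the pre-T cell receptor alpha chain, read from 2.5 to 42.6, and Arpp21 from 14.8 to 53.3. The other 4 are also genes of mature T or B cells and were tested: Cd8b1 read up to 5134.7, Satb1 up to 2810.9, Cd1d1 up to 1998.0 and Cd4 up to 799.1. The sum of all 6 was highest on transitional 1 (9394), the array with the highest Rag1 and Rag2 signals. There Cd8b1 and Satb1 had their highest signals, while Ptcra read 4.3 and Arpp21 40.6. The part of thymocytes in the Rag1 and Rag2 signals was not tested.

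Of the surrogate light chain family, Vpreb3 passed the filter with its 1 probe set, Igll1 with 1 of 2 and Vpreb1 with none. Vpreb1 read 76.2, 22.1, 1.8, 42.7, 4.9 and 1.4 on marginal 1 to 6 and 17.1, 6.1, 39.7, 11.8 and 22.0 on transitional 1 to 5. The tested Igll1 probe set (1420176_x_at) read 153.4, 34.0, 24.6, 129.0, 69.2 and 84.4 in the marginal and 104.2, 79.3, 146.1, 29.7 and 103.1 in the transitional class. Its suffix marks probes that can also match other sequences. The second Igll1 probe set (1420177_at) read from 4.9 to 52.4 in marginal lymphomas and 3.0, 54.6, 3.1, 3.9 and 3.7 in transitional ones, so the 2 Igll1 probe sets ranked the arrays differently and the transcript's pattern stays uncertain. Vpreb3, whose product binds immunoglobulin chains inside B lineage cells, read 355.3, 976.9, 298.0, 1062.9, 122.5 and 39.2 on marginal 1 to 6. On transitional 1 to 5 it read 694.3, 102.0, 293.3, 74.6 and 132.0. Vpreb3 was high on marginal 2 and 4 and transitional 1 and low on marginal 6 and transitional 4, and the classes overlapped.

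Vpreb1 and Igll1 are neighbouring protein-coding genes on chromosome 16 and encode partners of 1 complex, while Vpreb3 lies on chromosome 10 and Il7r on chromosome 15. The 250 bases before the annotated start of these 4 genes are shown because Vpreb1 and Igll1 make the 2 parts of the surrogate light chain, while Vpreb3 and Il7r are tested members that followed different marker lists over the arrays. The sequences are from RefSeq, build GRCm38.p6, 5′ to 3′ along the strand of the gene, and capitals mark the letters CAGGTG (the E-box bound by E2A proteins), CCCNNGGG (the core letters of an EBF1 site) or TTCNNNGAA (the letters of a STAT site), on either strand.
Vpreb1, chr16:16869256-16869505, minus strand: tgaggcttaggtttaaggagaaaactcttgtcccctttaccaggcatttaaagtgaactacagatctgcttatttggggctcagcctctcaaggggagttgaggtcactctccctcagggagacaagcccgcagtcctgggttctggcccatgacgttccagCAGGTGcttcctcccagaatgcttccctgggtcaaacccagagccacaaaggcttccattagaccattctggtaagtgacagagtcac
Igll1, chr16:16863986-16864235, minus strand: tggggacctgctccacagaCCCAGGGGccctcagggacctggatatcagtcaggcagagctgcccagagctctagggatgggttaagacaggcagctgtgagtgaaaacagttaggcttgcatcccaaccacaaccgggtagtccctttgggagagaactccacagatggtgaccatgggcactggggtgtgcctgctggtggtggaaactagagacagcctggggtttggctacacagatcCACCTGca
Vpreb3, chr10:75948050-75948299, plus strand: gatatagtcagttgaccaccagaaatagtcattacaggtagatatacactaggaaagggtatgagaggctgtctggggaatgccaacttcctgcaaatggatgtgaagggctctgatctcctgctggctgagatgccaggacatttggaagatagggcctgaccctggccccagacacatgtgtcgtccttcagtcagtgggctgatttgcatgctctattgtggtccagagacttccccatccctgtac
Il7r, chr15:9529877-9530126, minus strand: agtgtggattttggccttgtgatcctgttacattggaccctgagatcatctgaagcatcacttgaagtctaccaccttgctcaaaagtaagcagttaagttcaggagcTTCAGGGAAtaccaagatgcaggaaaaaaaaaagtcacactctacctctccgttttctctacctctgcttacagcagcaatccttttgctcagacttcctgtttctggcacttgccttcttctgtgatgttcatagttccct
Letters matching CAGGTG began at −88 in Vpreb1 and −8 in Igll1, counting −1 as the base just before the start, and the Rag1 promoter held it at −135. Promoters of 8 of the 9 genes were matched, the exception being Cd93, and 3 of these 8 held CAGGTG, against 17.2% of 32851 promoters. All 8 held the looser E-box CANNTG, which includes CAGGTG, as did 66.2% of all promoters. CCCNNGGG was found in Igll1 alone (11.8% of all promoters) and TTCNNNGAA in Il7r alone, at −142 (7.02% of all promoters). A match is a run of letters and not a binding site, and no binding was measured.

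Il7r, the alpha chain of the interleukin 7 receptor, had the widest range over the arrays among the tested probe sets. The first probe set (1448575_at) read 452.4, 1025.8, 847.3, 885.2, 746.8 and 559.0 on marginal 1 to 6. It read 2487.5, 1021.6, 761.7, 405.5 and 27.6 on transitional 1 to 5. The second (1448576_at) ran the same way, from 2.9 on transitional 5 to 935.1 on transitional 1. The marginal signals thus lay within a range that the transitional signals exceeded at both ends. On transitional 5 both probe sets were below the signal that equals the filter (27.6 and 2.9), so no exact fold is given.

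T cell markers moved with Il7r over the arrays. Their summed signal over 14 genes ran from 3439 to 11781 in marginal lymphomas, was 31148 on transitional 1 and 647 on transitional 5, the arrays with the highest and lowest Il7r. The T cell receptor chain Cd3e read 1388.6 on transitional 1 and 14.2 on transitional 5, and from 120.8 to 951.1 on the other arrays. On transitional 5 the defining markers Cd3e, Cd3d and Cd3g were thus at 14.2, 30.9 and 23.9. Log2 Il7r signal followed the log2 sum of T cell markers (Pearson r = 0.925, permutation p = 9e-05, adjusted p = 0.00202; Spearman rho = 0.873, permutation p = 0.00092, adjusted p = 0.0182; 11 arrays). Without transitional 5 and transitional 1 the coefficient was r = 0.829, within the marginal class it was 0.737, and without transitional 4 and 5 it was 0.851 (adjusted permutation p = 0.0498). The thymocyte list, which shares Cd4 and Cd8b1 with the T cell list, gave r = 0.903 (permutation p = 4e-05, adjusted p = 0.0018; rho = 0.964, permutation p = 1e-05, the smallest the resamples can give, adjusted p = 0.00045; r = 0.898 without the same 2 arrays and 0.814 within marginal). These are 2 of 45 relations of the 5 genes' tested probe sets with 9 cell type lists, chosen after seeing the data, of which 4 passed. With mature B cell markers Il7r gave r = 0.750 (permutation p = 0.00574, adjusted p = 0.0517), which did not pass, at 0.230 without transitional 4 and 5 and 0.667 within marginal. The part of T cells and B cells in the Il7r signal was not tested.

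At their tested probe sets Sox4, a transcription factor of progenitor cells, and Cd93, a surface marker of immature B cells, were both highest on marginal 1. At the first tested Sox4 probe set and the tested Cd93 probe set the lowest signals were on the moderate spleens of the marginal class, and at the second tested Sox4 probe set they were on transitional 1 and 3. The first Sox4 probe set (1433575_at) read 719.2 on marginal 1, 232.9, 161.9 and 106.8 on marginal 2 to 4, and 31.1 and 48.0 on marginal 5 and 6. On transitional 1 to 5 it read 76.4, 127.1, 71.0, 270.1 and 422.2, highest on the 2 moderately severe spleens. The tested Cd93 probe set (1419589_at) read 260.8, 82.9, 94.1, 77, 9.2 and 14.8 on marginal 1 to 6 and 128.6, 80.7, 105.6, 80.1 and 123.3 on transitional 1 to 5. The second tested Sox4 probe set (1419155_a_at) read 183.9 on marginal 1 and 18.4 on marginal 6, and in the transitional class 6.8, 72.0, 12.4, 125.1 and 119.0. The 4 Sox4 probe sets below the filter read from 1.6 to 191.5, and the second Cd93 probe set from 7.7 to 59.4. Of these, Sox4 1419156_at and 1449370_at were also highest on marginal 1. Sox4 1419157_at peaked on transitional 5 (126.6), Sox4 1455867_at on marginal 5 (61) and the second Cd93 probe set on transitional 3 (59.4).

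Granulocyte precursor markers moved with Sox4. Their signal summed over 12 genes was highest on marginal 1 (246239), transitional 4 (193105), marginal 3 (172637) and transitional 5 (104405), and at most 82719 on every other array. Mpo, the myeloperoxidase of these cells, read 21288 on marginal 1 and 47.2 on transitional 1. Log2 Sox4 signal followed the log2 sum (Pearson r = 0.830, permutation p = 0.00198, adjusted p = 0.0223; Spearman rho = 0.873, permutation p = 0.00124, adjusted p = 0.0182; 11 arrays). The coefficient was r = 0.811 without marginal 1 and transitional 1, 0.871 within the marginal class and 0.819 without transitional 4 and 5 (adjusted permutation p = 0.0498), and the call was lost without marginal 1 (r = 0.784, adjusted permutation p = 0.0898) or marginal 6 (r = 0.801, adjusted permutation p = 0.0651). Sox4 also ran with macrophage and monocyte markers (r = 0.648, adjusted permutation p = 0.147, 0.891 within marginal) and erythroid markers (r = 0.604, adjusted permutation p = 0.185, 0.750 within marginal). It ran against mature B cell markers (r = −0.641, adjusted permutation p = 0.147, −0.575 within marginal), and none of these passed. For Cd93 the relation with granulocyte precursor markers did not pass (r = 0.555, permutation p = 0.0762, adjusted p = 0.264; rho = 0.373, permutation p = 0.260, adjusted p = 0.508; r = 0.710 without marginal 1 and transitional 1 and 0.856 within marginal). Of the 9 lists, plasma cell markers ran closest with Cd93, and that relation did not pass (r = 0.718, permutation p = 0.00837, adjusted p = 0.0628; rho = 0.627, permutation p = 0.0435, adjusted p = 0.178). It was r = 0.330 without marginal 5 and 6, on which it rests, 0.872 within marginal and 0.763 without transitional 4 and 5. With macrophage and monocyte markers Cd93 gave r = 0.498 (permutation p = 0.116, adjusted p = 0.348; rho = 0.236, permutation p = 0.486, adjusted p = 0.718), at 0.592 without transitional 1 and marginal 6 and 0.941 within marginal. With endothelial markers it gave r = −0.037 (permutation p = 0.914, adjusted p = 0.929; rho = −0.209, permutation p = 0.539, adjusted p = 0.718), at −0.071 without transitional 2 and marginal 4 and 0.223 within marginal. Vpreb3 followed the summed signal of plasma cell markers, 8 genes with Jchain, the joining chain of secreted antibodies, among them (r = 0.857, permutation p = 0.00095, adjusted p = 0.0142; rho = 0.845, permutation p = 0.00162, adjusted p = 0.0182). This relation was r = 0.810 without marginal 5 and 6, 0.838 within marginal, and r = 0.809 without marginal 6, where the call was lost (adjusted permutation p = 0.0651). On marginal 6 Vpreb3 read 39.2, below the signal that equals the filter, 62.7. The sum was made mostly of Jchain, Xbp1 and Ssr4, which on marginal 4 read 27728, 5447 and 3948 of 38999.5. There Irf4 read 820.1, and Slamf7, Sdc1, Prdm1 and Tnfrsf17 read 339.8, 363.4, 220.1 and 133.2. Vpreb3 ran less closely with mature B cell markers (r = 0.446, permutation p = 0.173, adjusted p = 0.406; rho = 0.382, permutation p = 0.249, adjusted p = 0.508; r = 0.237 without transitional 4 and 5 and 0.336 within marginal), a difference that was not tested. Within marginal Vpreb3 ran closely with thymocyte (r = 0.923), T cell (0.852) and natural killer cell markers (0.851) too. Over all arrays these lists gave r = 0.680, 0.511 and 0.430, and none passed (adjusted permutation p = 0.111, 0.344 and 0.406). The part of these other cells in the Sox4, Cd93 and Vpreb3 signals was not tested.

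**Figure D2:**
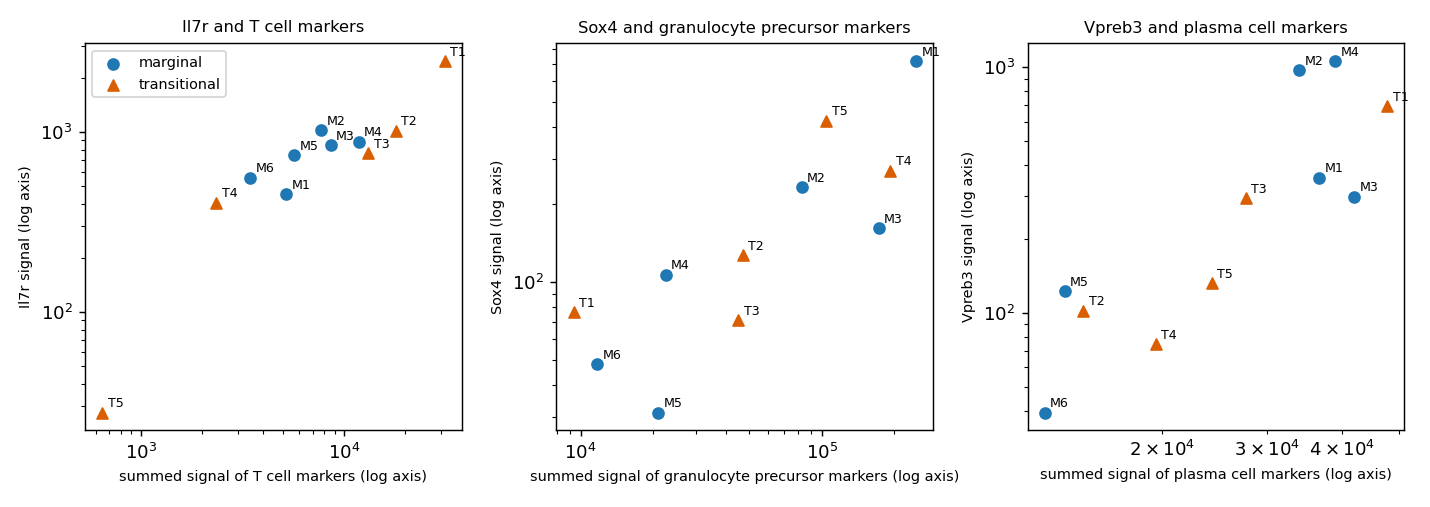
Points are the 11 arrays (M marginal, T transitional, with their numbers), with the summed signal of a marker list on the horizontal and the signal of the gene on the vertical axis, both logarithmic. Il7r is plotted against T cell markers (r = 0.925), Sox4 against granulocyte precursor markers (r = 0.830) and Vpreb3 against plasma cell markers (r = 0.857), and T5 lies far below all other arrays in the first panel.

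The lymphomas had been assigned to severity classes, and comparing these classes gave no difference that passed for any of these genes. With limma, 0 of the 7 tested probe sets had an adjusted p under 0.05, against 0% of all 13576 tested, and 0 of the 7 had an unadjusted p under 0.05, against 454 (3.34%) of all. Vpreb3 signal was 476 ± 438 (SD, n = 6) in marginal and 259 ± 258 (SD, n = 5) in transitional lymphomas, a log2 difference of −0.63 (SE 0.78, 95% interval −2.32 to 1.07). Without transitional 4 and 5 it was −0.084 (SE 0.89), and without marginal 4 it was −0.27. Igll1 was 82.4 ± 51.1 (SD, n = 6) and 92.5 ± 42.5 (SD, n = 5), a difference of 0.21 (SE 0.43, interval −0.74 to 1.15), or 0.50 (SE 0.47) without the pair. Differences within these intervals are not excluded with this number of arrays.

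For Il7r the first probe set was 753 ± 214 (SD, n = 6) in marginal and 941 ± 942 (SD, n = 5) in transitional lymphomas, and the log2 difference was −0.52 (SE 0.79, interval −2.24 to 1.21). This sign rests on transitional 5: without that array the difference was 0.37, and without transitional 4 and 5 it was 0.77 (SE 0.37, adjusted p = 0.665). The second Il7r probe set differed by −0.65 (SE 0.82), by 0.15 without transitional 5 and by 0.73 (SE 0.49) without the pair. Cd93 was 89.8 ± 91.2 (SD, n = 6) and 104 ± 22.9 (SD, n = 5), a difference of 0.60 (SE 0.54, interval −0.56 to 1.77), or 0.62 (SE 0.66) without the pair. Sox4 differed by 0.17 (SE 0.68) at the first probe set, where the difference was −0.53 without transitional 4 and 5, and by −0.60 (SE 0.58) at the second, where it was −1.34 (SE 0.58, limma adjusted p = 0.595) without them and −0.23 without transitional 1. With all arrays, adjusted p was 0.999 for each of the 7 probe sets. Without the pair, 0 of the 7 were called against 0% of all, and 1 of the 7, the second of Sox4, had an unadjusted p under 0.05 against 7.95%.

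Fitted without the filter, the 12 dimmer probe sets gave no call either, and 0 of 19 had an unadjusted p under 0.05, against 3.84% of 22626. The differences were 0.42 (SE 0.30) for Rag1, 0.24 (SE 0.23) for Rag2, 0.02 (SE 0.44) for Vpreb1, and −0.43 (SE 0.36), −0.14 (SE 0.31) and −0.33 (SE 0.25) for the Dntt probe sets. The second Igll1 probe set was at −0.57 (SE 0.43), opposite in sign to the tested one, and the second Cd93 probe set at 0.28 (SE 0.30). Among the dim Sox4 probe sets, 1449370_at was at 0.71 (SE 0.37), 1455867_at at 0.56 (SE 0.34), 1419156_at at 0.39 (SE 0.69) and 1419157_at at −0.24 (SE 0.42). The classes overlapped at all 19 probe sets, while 0.252% of all 22626 did not overlap.

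**Figure D3:**
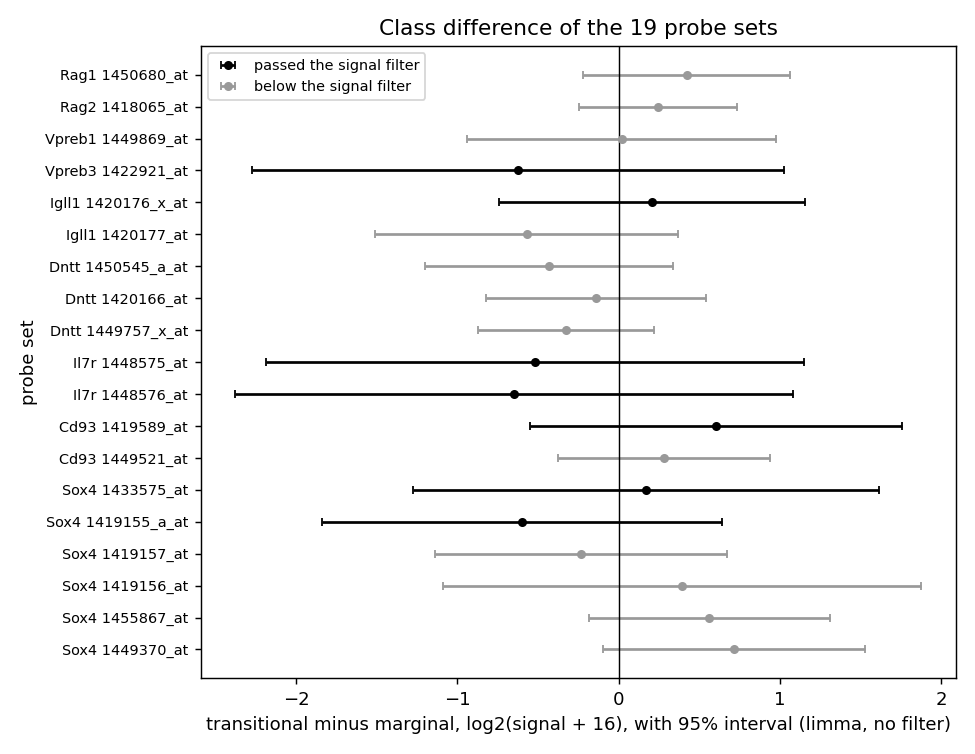
Points are transitional minus marginal differences on the log2(signal + 16) scale for the 19 probe sets and bars their 95% intervals from limma without a signal filter; black marks the 7 that passed the filter and grey the 12 that did not. All 19 intervals include 0, and those of Il7r and Vpreb3 are among the widest.

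Spleen grade was taken as the other recorded measure of severity, ranked from 1 (marginal) to 5 (severe). No slope passed in limma: 0 of the 7 were called against 0% of 13576, and 0 of the 7 had an unadjusted p under 0.05, against 2.15%. Vpreb3 changed by −0.40 per grade (SE 0.29), or by −0.77 (SE 0.27, adjusted p = 0.995) without transitional 1, and read from 293.3 to 1062.9 on the 4 mild spleens, 39.2 and 122.5 on the moderate, 74.6 and 132.0 on the moderately severe and 102.0 and 694.3 on the severe ones. The first Il7r probe set changed by −0.0087 per grade (SE 0.31). Its highest signal was on a severe spleen (2487.5), while the other severe spleen read 1021.6 and the mild ones up to 1025.8. Its lowest signals were on the moderately severe spleens (405.5 and 27.6). Slopes were −0.10 (SE 0.22) for Cd93, −0.20 (SE 0.26) and −0.25 (SE 0.22) for Sox4, −0.052 (SE 0.17) for Igll1 and −0.067 (SE 0.33) for the second Il7r probe set. With all arrays, adjusted p from limma was 0.9996 for each of the 7 slopes. Without transitional 4 and 5 the slopes were 0.34 and 0.30 for Il7r, −0.41 for each Sox4 probe set, −0.28 for Vpreb3, −0.17 for Cd93 and −0.0088 for Igll1. None of them was called, with adjusted p from limma of 0.424 at the first Il7r probe set (SE 0.12) and 0.647 or more at the others. In that fit 1 of the 7, the first of Il7r, had an unadjusted p under 0.05, against 8.88% of all. Among the dim probe sets fitted without the filter, 1 of 19 had an unadjusted p under 0.05 (3.13% of all), the first Dntt probe set at −0.29 per grade (SE 0.12, adjusted p = 0.999).

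Within the marginal class the signals of 3 of the 7 tested probe sets, both of Sox4 and that of Cd93, were lower at each higher grade without overlap between grades. The other Sox4 probe sets and the second Cd93 probe set, all below the filter, were not ordered in this way. The falling order was seen in 5.63% of all tested probe sets, and the opposite order in 6.95%. It was noticed in these arrays, rests on 1, 3 and 2 spleens, and has no test. Its low end was dim: on marginal 5 and 6 the first Sox4 probe set read 31.1 and 48.0 and Cd93 9.2 and 14.8. The second tested Sox4 probe set read 18.4 on marginal 6. All of these lay below the signal that equals the filter, 62.7. With class in the model the slope was −0.50 per grade (SE 0.36) for the first Sox4 probe set and −0.55 (SE 0.26) for Cd93, and 0 of the 7 were called against 0% of all (0 against 2.2% at an unadjusted p under 0.05). Without the filter 1 of 19 had an unadjusted p under 0.05, against 3.5% of all, Vpreb1 at −0.58 (SE 0.19, limma adjusted p rounding to 1). Without transitional 3, the mild spleen of its class, the slopes were −1.78 (SE 0.21, adjusted p = 0.0125) and −1.24 (SE 0.30, adjusted p = 0.0367). The second Sox4 probe set then gave −1.16 (SE 0.32, adjusted p = 0.0524). That fit called 2 of the 7 probe sets, both with a negative slope, against 8.43% of all tested (3.71% with a negative slope). Its transitional class held only transitional 4 and 5, which stand apart, and the severe transitional 1 and 2. On these pairs Sox4 read 270.1 and 422.2 against 76.4 and 127.1, and Cd93 80.1 and 123.3 against 128.6 and 80.7. Without transitional 4 and 5 the slopes with class were −0.50 (SE 0.32) for the first Sox4 probe set and −0.55 (SE 0.28) for Cd93, and 0 of the 7 were called. The summed granulocyte precursor signal in the marginal class also stood highest on marginal 1 (246239) and lowest on marginal 5 and 6 (21004 and 11733), and its part in these slopes was not tested.

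**Figure D4:**
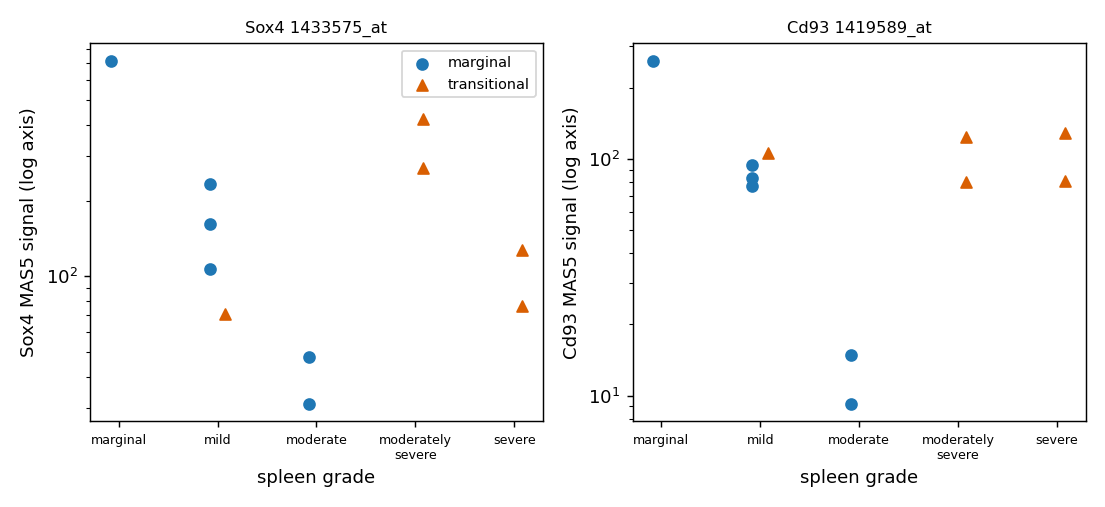
Sox4 (1433575_at) and Cd93 (1419589_at) signal, on log axes, against spleen grade for the 6 marginal (circles) and 5 transitional (triangles) lymphomas. In the marginal class Sox4 runs from 719.2 at the lowest grade to 31.1 and 48.0 at moderate, and the transitional points do not continue that order.

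No pair of the 9 genes passed a test of moving together. Over all 36 pairs, using for each gene the probe set with the highest mean, 0 relations passed after adjustment and 4 had an unadjusted permutation p under 0.05 by Pearson's coefficient. The closest pair was Cd93 and Sox4 (r = 0.767, permutation p = 0.00561, adjusted p = 0.202; rho = 0.564, permutation p = 0.0750, adjusted p = 0.528), with r = 0.569 without marginal 5 and 6 and 0.966 within the marginal class. Vpreb1 and Igll1, the partners of the surrogate light chain, gave r = 0.631 (permutation p = 0.0395, adjusted p = 0.355; rho = 0.691, permutation p = 0.0228, adjusted p = 0.300), with r = 0.649 without marginal 1 and 6 and 0.653 within marginal. Vpreb1 and Cd93 gave r = 0.689 (permutation p = 0.0190, adjusted p = 0.271; rho = 0.518, permutation p = 0.106, adjusted p = 0.544) and r = 0.389 without marginal 1 and 6, so that relation rests on these arrays (0.757 within marginal). Rag2 and Dntt ran in opposite directions (r = −0.666, permutation p = 0.0226, adjusted p = 0.271; rho = −0.655, permutation p = 0.0333, adjusted p = 0.300), at r = −0.309 without transitional 1 and 5, on which it rests, and −0.539 within marginal. For the neighbouring Rag1 and Rag2 the value was r = 0.317 (permutation p = 0.294, adjusted p = 0.880; rho = 0.0545, permutation p = 0.879, adjusted p = 0.946; 0.458 without marginal 4 and 6 and 0.145 within marginal). Dim signals enter most of these pairs, and depth above background limits them.

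**Figure D5:**
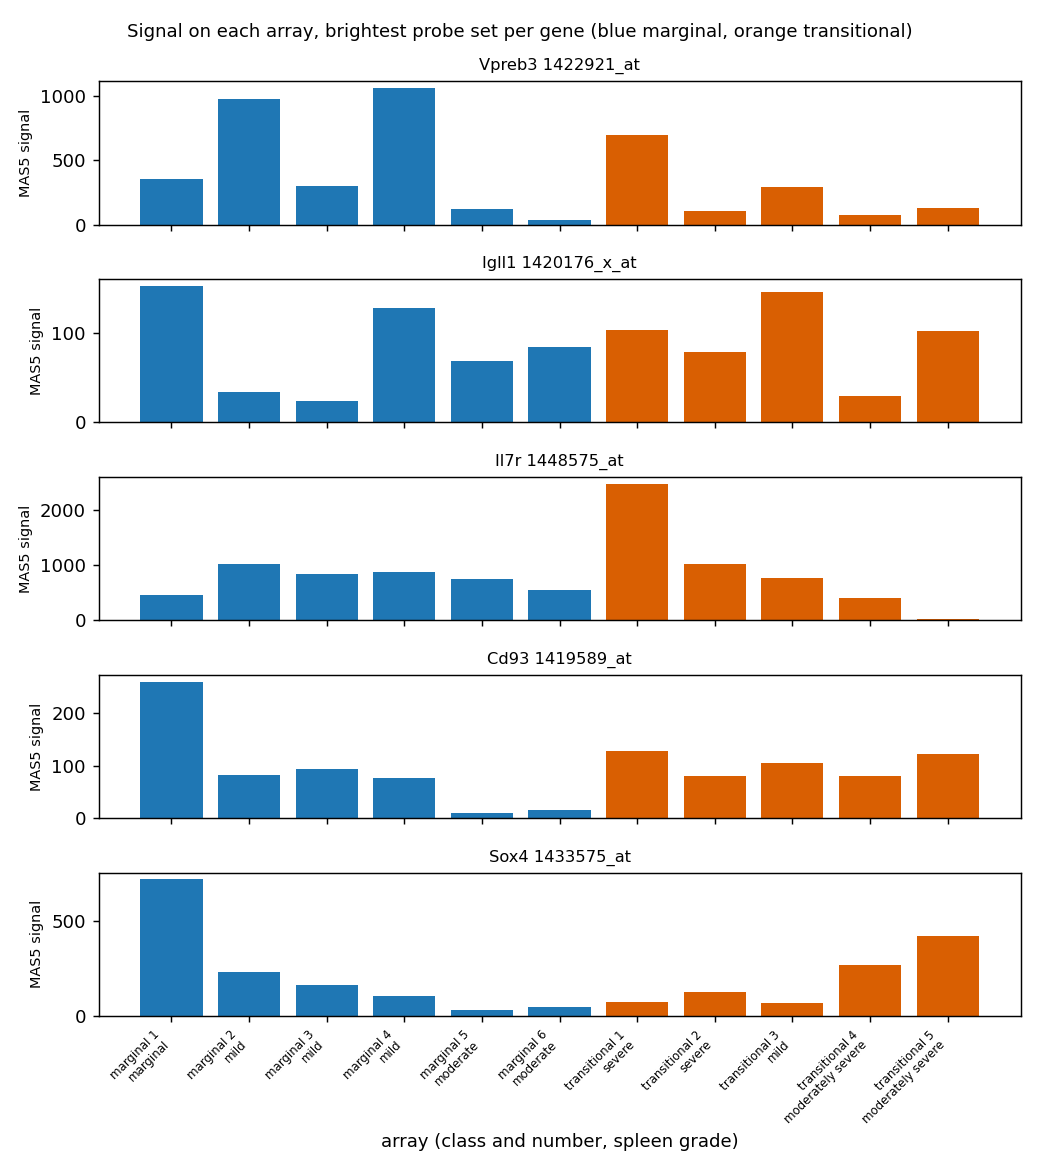
Bars give the MAS5 signal of the tested probe set with the highest mean of Vpreb3, Igll1, Il7r, Cd93 and Sox4 on each array, in blue for marginal and orange for transitional lymphomas, with the spleen grade under each. The genes peak on different arrays: Vpreb3 on marginal 4 (1062.9), Il7r on transitional 1 (2487.5), and Igll1, Cd93 and Sox4 on marginal 1.

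The genes whose pattern lay closest to each member were found by the mean absolute difference of standardised log2 signals over the 11 arrays, in SD units. For Il7r they were Trav9d-3, a T cell receptor alpha variable segment (0.187), Txk (0.202) and Snx19 (0.202), as close as the second Il7r probe set itself (0.193), where the median over all tested probe sets was 0.986. For Vpreb3 they were Lrrk2 (0.245), Icosl (0.268) and Slc41a2 (0.270), against a median of 1.08. Sox4 lay closest to Foxk2 (0.218), Map2k3 (0.282) and Gpr146 (0.289), all closer than its own second probe set (0.604). Cd93 lay closest to Emb (0.268), Ptpn12 (0.307) and Igfbp4 (0.322). The nearest to Igll1 were more distant: Dcc (0.314), Zbtb21 (0.349) and Prss44 (0.381).

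Partner genes of the pre-B stage were compared between classes in the same fit, where 0% of all probe sets were called and the median log2 difference over all was −0.06. All 12 tested genes of pre-B cell receptor signalling had a lower mean in the transitional class and 0 passed, with a median of −0.77. Among them were Btk at −0.58 (SE 0.26) and Blnk, the adaptor between Syk and Btk and the gene next to Dntt on chromosome 19, at −1.09 (SE 0.52). Of 18 tested early B lineage transcription factors 14 had a lower and 4 a higher mean and 0 passed (median −0.46), with Ebf1, which directs entry into the B lineage, at −1.76 (SE 0.51) and Bcl11a at −0.86 (SE 0.27). These medians rest on transitional 4 and 5, where B cell markers were low: without that pair 8 of the 12 pre-B cell receptor genes had a higher and 4 a lower mean (median 0.052), as did 10 and 8 of the 18 transcription factors (median 0.078), and the median over all probe sets was 0.016. Blnk was then at −0.097 (SE 0.26), Btk at −0.35 (SE 0.28), Ebf1 at −1.03 (SE 0.45) and Bcl11a at −0.79 (SE 0.33), with 0 of either list called.

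Among 13 tested recombination and end joining partners 8 had a lower and 5 a higher mean and 0 passed (median −0.09). Polm, a polymerase that fills joints, was at −0.67 (SE 0.43) and Trp53bp1, which protects broken ends, at −0.79 (SE 0.52). Of 14 tested genes of interleukin 7 signalling 10 were lower and 4 higher and 0 passed (median −0.14), with the transcription factor Stat5b at −0.44 (SE 0.23) and the receptor chain Crlf2 at −0.62 (SE 0.35). Other surface markers of pro-B, pre-B and immature B cells had 9 tested genes, 7 lower and 2 higher, and 0 passed (median −0.20). Ly6d was at −1.11 (SE 0.68) and Cd24a at −0.20 (SE 0.18). Without transitional 4 and 5 the medians of these 3 lists were 0.012, 0.010 and −0.039, with 0 called, and Ly6d was at 0.10 (SE 0.44), Cd24a at −0.46 (SE 0.17), Polm at −0.041 (SE 0.38), Trp53bp1 at 0.11 (SE 0.35), Stat5b at −0.20 (SE 0.23) and Crlf2 at −0.048 (SE 0.26). The precursor markers Il2ra, Enpep, Mme and Cd34 of this list lay below the filter, with signals of 14.0 to 123.7, 0.7 to 43.0, 0.3 to 37.2 and 4.6 to 147.5.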

How the data were processed

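Array intensities were deposited by the authors as MAS5 signals, 1 value per probe set and array, per the submitters' processing notes, with no version named. Each array's 2% trimmed mean was 500.2, so these values cannot show a shift common to most transcripts. Per the labels' protocols, cRNA was made from poly-dT primed cDNA, which makes signal far from the poly(A) tail depend on intact RNA. No scan record was used, so a batch could not be tested, and p-values measure the spread between these samples, 1 array each, whose number limits the precision.

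Of 22690 probe sets, 64 controls were left out, 16 was added before log2, and the upper 60% by mean (13576) were tested with limma 3.58.1 in R 4.3.3 (two-sided, eBayes with an intensity trend, adjusted p threshold 0.05 by Benjamini-Hochberg). Spleen grade was a linear term, alone and with class. Probe sets were named from the platform table in GEO, with symbols brought up to RefSeq GRCm38.p6 by Entrez identifier (20380 probe sets with 1 gene, 691 with several, 1555 with none). Relations used 100000 permutations (two-sided) of log2 values, adjusted within each family of 36 or 45. Named genes were all member probe sets, the 2 smallest class p of each described list, and the 3 nearest genes of each tested member. Genes, lists and tests were chosen with earlier results of these data known. Kit and the surface markers set beside it, the summed marker lists and the gene lists without transitional 4 and 5 were taken up after values were seen. In simulated data with 13576 probe sets the class fit recovered 23 of 100 seeded 2-fold and 76 of 100 seeded 4-fold changes with 5 false calls. The grade fit recovered 2 and 37 of 100 changes of 2-fold and 4-fold from lowest to highest grade, with 1 false call. The noise was normal and independent between probe sets and arrays, and changes were seeded at random probe sets. These shares thus do not give the power for the member genes.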

Additional observations from a re-analysis of the deposited data

Results flagged for a closer look

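The second Igll1 probe set (1420177_at), which lay below the signal filter, read 54.6 on transitional 2 and 3.0 to 3.9 on the other 4 transitional arrays. On the log2(signal + 16) scale the gap below transitional 2 was 0.965 of the range of the class, above Dixon's critical value of 0.710 for 5 samples. It was the only one of 38 groups (19 probe sets in 2 classes) to pass that value, and chance alone passes about 1 group in 20. The tested Igll1 probe set read 79.3 on the same array, within the range of its class.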

How the results depend on the processing

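Alternatives were offsets of 1 and 64, quantile normalization, median scaling, no filter, the upper 40% by mean (where 2 of the 7 probe sets remained), eBayes without trend, array weights, the replicate number as a block (class and grade, each alone), animals that failed to nest (class), leaving out transitional 4 and 5, and leaving out each array in turn. No member was called between classes or for the grade slope alone under any of them. With class in the model, 0 to 2 members were called on leaving out 1 array, 2 of them without transitional 3. Without 1 array, 2 to 9 of the 45 relations with cell type lists passed (2 without marginal 6, 9 without transitional 2, 4 over all arrays), and 0 of the 36 relations between members passed in any setting.

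Signs of small differences turned. The class difference of the first Sox4 probe set was −0.50 with array weights, −0.077 with the replicate block, −0.30 among animals that failed to nest and −0.53 without transitional 4 and 5. Those of the 2 Il7r probe sets were 0.21 and 0.043 with array weights and 0.77 and 0.73 without transitional 4 and 5. The grade slope of the first Il7r probe set was 0.037 with an offset of 64, 0.020 with quantile normalization, 0.016 with median scaling, 0.21 with array weights, 0.11 with the replicate block and 0.34 without transitional 4 and 5. For the second one it was 0.012 with an offset of 64, 0.15 with array weights, 0.064 with the replicate block and 0.30 without transitional 4 and 5, and for Igll1 it was 0.11 with array weights. The cause of these turns was not tested.

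Leaving out 1 array, class differences ran from −1.13 to −0.27 for Vpreb3, from −0.90 to −0.23 for the second Sox4 probe set, from −0.011 to 0.49 for Igll1, from −0.17 to 0.63 for the first Sox4 probe set, and from −1.09 to 0.37 and −1.27 to 0.15 for Il7r. Grade slopes ran from −0.77 to −0.29 for Vpreb3, −0.24 to 0.12 for Cd93, −0.13 to 0.072 for Igll1, −0.30 to 0.10 for Sox4, and −0.33 to 0.24 and −0.43 to 0.16 for Il7r. With class in the model they ran from −1.16 to 0.049 for the second Sox4 probe set, −1.78 to −0.17 for the first, −1.24 to −0.32 for Cd93, and −0.053 to 1.02 and −0.14 to 0.97 for Il7r. Deviations of same-numbered arrays from their class means correlated from −0.45 to −0.088 over the tested probe sets. Arrays of different numbers were not compared, so whether the replicate numbers pair the arrays was not decided. The block changed no call. Dim signals limit what can be said of Rag1, Rag2, Vpreb1 and Dntt, whose differences depend on the offset; that of Rag1 was 0.99 with an offset of 1.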

Other observations

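Kit, the stem cell factor receptor of progenitors and one of the surface markers listed for early B cells, was highest on the arrays where the first Sox4 probe set was highest, which was noticed after its values were seen. It read 542.0 on marginal 1, 336.3 on transitional 4 and 222.5 on transitional 5, while no other array exceeded 188.1. Bst1, a surface marker of pre-B cells and of myeloid cells, had its highest signals on marginal 1 (367.7), transitional 2 (256.2) and transitional 4 (216.6), with at most 166.8 elsewhere. The other surface markers of that list varied. Cd34, below the filter, was highest on the same arrays as Kit (147.5, 76.8 and 72.9). Cxcr4 also peaked on marginal 1 and Cd24a on transitional 4. Spn peaked on transitional 1, Cd9 and Mme on transitional 2, and Cd2, Il2ra and Enpep on transitional 3. Flt3 and Ly6d were highest on marginal 4 and lowest on transitional 4 (52.0 and 1493.6). Granulocyte precursor markers were high on marginal 1 and 3 and transitional 4 and 5, where Elane, the neutrophil elastase gene, read 15308, 5198, 6787 and 6659, and their part in the Kit and Bst1 signals was not tested.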
